A study of Homo sapiens with 26 samples.

Results

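The protein-coding genes of human chromosome 15 were followed in 26 libraries made from clones of 3 cancer cell lines. The genes taken were the chromosome 15 rows of the deposited table that were annotated as protein-coding and had a mean of at least 1 FPKM (fragments per kilobase of gene length, scaled per library) over the 26 libraries. The genes were thus selected on chromosome and mean level. This gave 329 of the 600 protein-coding rows of the chromosome, and of 58735 rows in all. The lowest mean inside the threshold was 1.03 FPKM for CCDC9B and the highest outside it was 0.996 FPKM for MYEF2. The chromosome itself was chosen by its median difference in 4 libraries, already seen to be shifted, namely the HCT116 small clones 3 and 2, the HCT116 2N clone 2 and the DLD1 large clone 4. The shifts in those 4 libraries are therefore given as a description, with no test.

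HCT116 and DLD1 are colorectal cancer lines and CAL51 is a triple-negative breast cancer line, and the submitters call all 3 near-diploid. Their tetraploid (4N) clones were sorted by the submitters into large and small ones, which differ in cell and nuclear size. HCT116 had 3 large and 3 small 4N clones, DLD1 had 4 large and 3 small, and CAL51 had 3 large and 1 small. Each line also had 2 clones labelled 2N and 1 library of its 2N parental cells. The 4N state was induced by blocking cytokinesis for 20 hr, with 75 µM blebbistatin in HCT116 and CAL51 and with 1.5 µg/mL dihydrocytochalasin in DLD1. After 48 hr of recovery, single cells were cloned, so each 4N library is 1 clone that grew from 1 cell. The labels do not say whether the 2N clones had met the inhibitor. No genotype other than 2N or 4N is given for any clone.

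Chromosome 15 is acrocentric: its short arm carries ribosomal RNA gene arrays, and nearly all of its other genes lie on the long arm, which includes the imprinted Prader-Willi and Angelman region. When a cell gains or loses a whole chromosome, the RNA of many genes on it moves in the direction of the gene dose, while some genes are held closer to their usual level or follow other regulators. Tetraploid cells are known to missegregate chromosomes more often than diploid cells. DNA copy number was not measured in the data used here.

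All 329 genes were found at the same coordinates in GENCODE release 29, on GRCh38, between chr15:22773063 and chr15:101724604. RefSeq promoter windows, from 250 bases before to 50 bases after the annotated start, were matched for 293 of them. The windows of ALDH1A3, CSPG4 and B2M are shown because these genes stood apart from the rest of the chromosome in the results that follow. They are given on GRCh38.p14, 5′ to 3′ on the strand of the gene, at chr15:100879581-100879880 (plus strand) for ALDH1A3, chr15:75712799-75713098 (minus strand) for CSPG4 and chr15:44711267-44711566 (plus strand) for B2M. Capitals mark matches on either strand to the GC box GGGCGG and to the CCAAT box; TATAAA was also searched and had no match in the 3 windows.
ALDH1A3: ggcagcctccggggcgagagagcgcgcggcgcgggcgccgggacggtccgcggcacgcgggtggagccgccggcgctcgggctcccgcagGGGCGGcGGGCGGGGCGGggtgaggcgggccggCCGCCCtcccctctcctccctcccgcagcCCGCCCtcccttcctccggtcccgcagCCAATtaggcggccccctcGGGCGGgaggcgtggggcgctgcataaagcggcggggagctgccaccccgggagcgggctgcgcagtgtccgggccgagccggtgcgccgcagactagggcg
CSPG4: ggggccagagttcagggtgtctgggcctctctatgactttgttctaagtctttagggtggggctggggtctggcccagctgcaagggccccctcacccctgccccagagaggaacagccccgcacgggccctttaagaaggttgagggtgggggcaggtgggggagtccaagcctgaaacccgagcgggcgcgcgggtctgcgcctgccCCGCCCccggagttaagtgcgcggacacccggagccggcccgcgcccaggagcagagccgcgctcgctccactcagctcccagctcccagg
B2M: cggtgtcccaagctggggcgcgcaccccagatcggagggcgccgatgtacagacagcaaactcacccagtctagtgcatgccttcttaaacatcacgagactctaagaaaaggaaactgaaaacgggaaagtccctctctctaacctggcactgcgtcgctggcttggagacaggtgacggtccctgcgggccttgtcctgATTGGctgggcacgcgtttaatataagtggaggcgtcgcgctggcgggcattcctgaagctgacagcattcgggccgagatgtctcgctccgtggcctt
The ALDH1A3 window held 6 GC boxes and 1 CCAAT box at 81.7% GC, the CSPG4 window 1 GC box at 69.3% GC, and the B2M window 1 CCAAT box at 58.3% GC. Over the chromosome, 71.0% of the 293 windows held a GC box, against 73.0% of the windows of 8196 expressed genes on the other autosomes and 44.6% of all 27305 windows. A CCAAT box was in 37.5% of the chromosome 15 windows, 36.7% of the other expressed ones and 35.7% of all. TATAAA was in 4.10% of the chromosome 15 windows, 4.86% of the other expressed ones and 11.95% of all. The median GC content was 66% in the chromosome 15 windows and 66% in the other expressed ones. In these motifs the chromosome 15 genes were close to other expressed genes.

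Recovered depth was 23.5 to 44.5 M (mega) reads per library. The epithelial gene EPCAM had a median of 113.5 FPKM in HCT116, 302 FPKM in DLD1 and 111.1 FPKM in CAL51. The epithelial cadherin CDH1 had a median of 17.7 FPKM in HCT116, 106 FPKM in DLD1 and only 0.729 FPKM in CAL51. Of 10 colon markers, 5 had a median of at least 1 FPKM in HCT116, 7 in DLD1 and 3 in CAL51. The intestinal regulator CDX2 had a median of 5.69 FPKM in HCT116, 49.4 FPKM in DLD1 and 0.101 FPKM in CAL51. The colon mucin MUC2 stayed at or below 0.112 FPKM in every library. LGR5, also a colon marker, had a median of 0.00505 FPKM in HCT116 and 24.3 FPKM in DLD1, and reached 27.5 FPKM in a CAL51 library. Of 9 breast markers, 6 had a median of at least 1 FPKM in CAL51, the same number as in HCT116 and in DLD1. ERBB2, expected to be low or absent in CAL51, was among them, with a median of 18.7 FPKM there. Its median was 12.7 FPKM in HCT116 and 17.0 FPKM in DLD1. The 6 in CAL51 included VIM (median 15.7 FPKM) and not CDH1. In HCT116 and DLD1 the 6 included CDH1 and not VIM (medians 0.440 and 0.0277 FPKM). The hormone receptor genes ESR1 and PGR did not exceed 0.0217 FPKM in CAL51. Of 11 markers of fibroblasts, leukocytes and endothelium, 1 reached 1 FPKM in some HCT116 library (the collagen COL1A1, 1.20 to 5.25 FPKM), 1 in DLD1 (CD14, at most 1.53 FPKM) and 4 in CAL51, up to 16.3 FPKM for the collagen COL1A2. The part of these genes in the results was not tested.

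Per library, each gene was described by its log2(FPKM + 1) minus the mean of the line's other 2N libraries, that is the parental library and the 2N clones. The median of this difference over the 329 genes was -0.37 in the HCT116 small clone 3, -0.20 in small clone 2 and -0.10 in small clone 1. It was -0.03, -0.12 and -0.12 in the HCT116 large clones 1 to 3, 0.33 in 2N clone 2, -0.15 in 2N clone 1 and -0.17 in the parental library. Chromosome 15 thus stood low in 1 small clone above all and high in 1 clone that was not tetraploid. In DLD1 the median was 0.01, 0.02, 0.01 and 0.19 in the large clones 1 to 4, between -0.01 and 0.02 in the small clones, and between -0.01 and 0.02 in the 2N clones and the parental library. In CAL51 it lay between -0.04 and 0.02 in all 7 libraries.

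**Figure D1:**
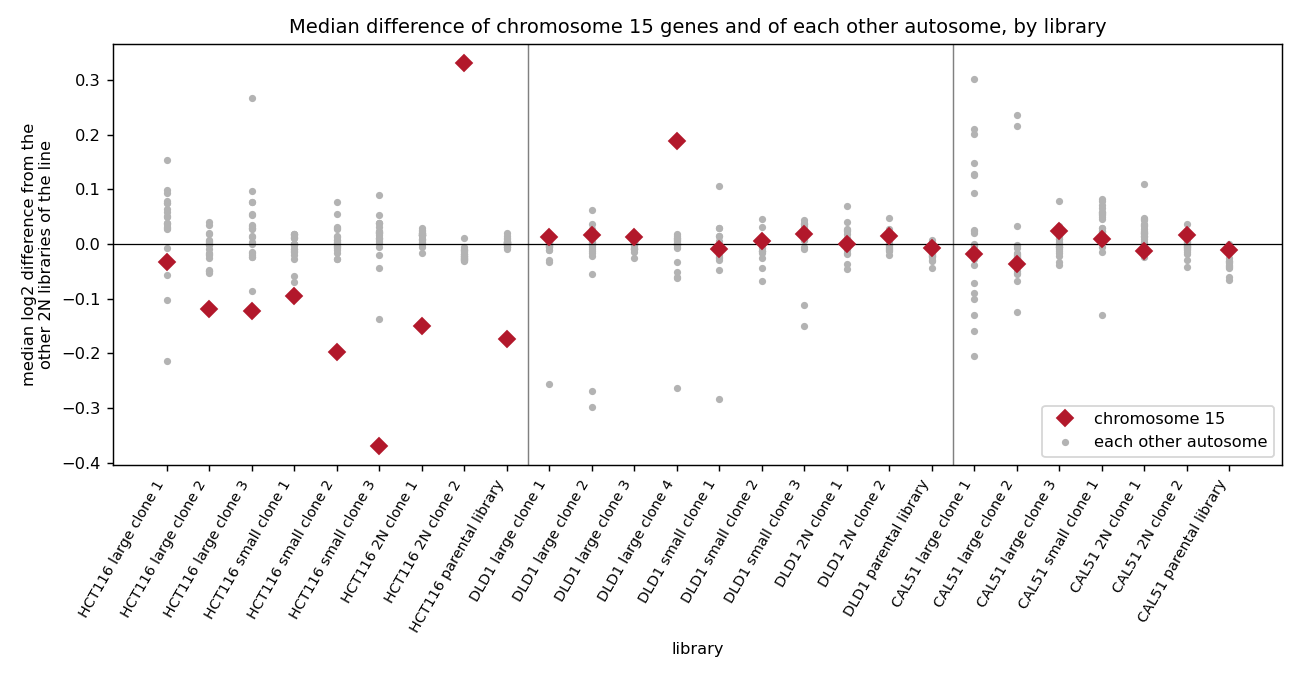
Median log2(FPKM + 1) difference from the other 2N libraries of the line, per library, for the 329 chromosome 15 genes (red diamonds) and for each of the other autosomes (grey points). Chromosome 15 lies at -0.37 in the HCT116 small clone 3, at 0.33 in the HCT116 2N clone 2 and at 0.19 in the DLD1 large clone 4, outside the range of the other autosomes in each of those libraries.

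Other autosomes lay closer to 0 in the same HCT116 libraries. Their medians ran from -0.14 to 0.09 in small clone 3, from -0.03 to 0.08 in small clone 2 and from -0.03 to 0.01 in 2N clone 2. All 10301 protein-coding genes of the other autosomes together had a median of 0.02 in small clone 3, 0.01 in small clone 2 and -0.02 in 2N clone 2. In the DLD1 large clone 4, chromosome 15 had the second largest median in size, after chromosome 7 at -0.26. The values are relative to each library's total, so less RNA of these genes per cell and fewer cells that carry it cannot be told apart. For scale, 3 parts in place of 4 is -0.42 on the log2 scale, 5 in place of 4 is 0.32 and 3 in place of 2 is 0.58; whether copy number changed was not tested.

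The HCT116 medians depend on 2N clone 2, since it is in the reference of every other library of that line. With 2N clone 2 left out of the reference, the median was 0.06, -0.01 and -0.04 in the large clones 1 to 3, and 0.00, -0.09 and -0.27 in the small clones 1 to 3. It was then 0.02 in 2N clone 1 and -0.02 in the parental library. Each of these was then the only reference of the other, so their values are the same comparison with opposite signs. Small clone 3 stayed well below the other libraries, small clone 2 kept less of its shift, and the remaining 6 libraries came close to 0. The medians of those 6 libraries lay between -0.04 and 0.06 against this reference.

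**Figure D2:**
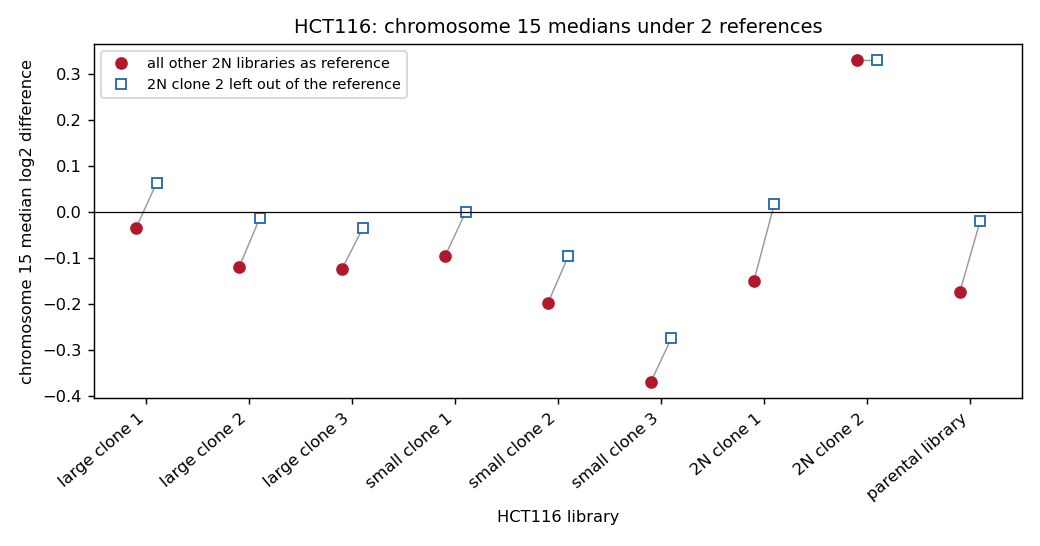
Median log2 difference over the 329 chromosome 15 genes in each HCT116 library, against all other 2N libraries (red circles) and with 2N clone 2 left out of the reference (blue squares). Small clone 3 moves to -0.27 and small clone 2 to -0.09, while the other libraries apart from 2N clone 2 lie between -0.04 and 0.06.

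The shift ran along the whole chromosome in 3 of the 4 libraries. In 11 groups of 29 or 30 consecutive genes, from NIPA1 near the centromere to TARSL2 near the end of the long arm, the group medians of small clone 3 lay between -0.43 and -0.31. Those of 2N clone 2 lay between 0.27 and 0.38 and those of the DLD1 large clone 4 between 0.12 and 0.25, so each library kept 1 direction in every group. The HCT116 small clone 2 was uneven, at -0.32 to -0.03. Its medians near 0 were those of the second group (-0.04, EIF2AK4 to LTK) and the one next to the last (-0.03, RAMAC to IQGAP1), which are far apart on the arm. Without 2N clone 2 in the reference, these groups of small clone 2 stood at 0.03 and 0.02, and its lowest was -0.24. No single step from one level to another was seen in any of the 4 libraries, so no first or last gene is named.

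**Figure D3:**
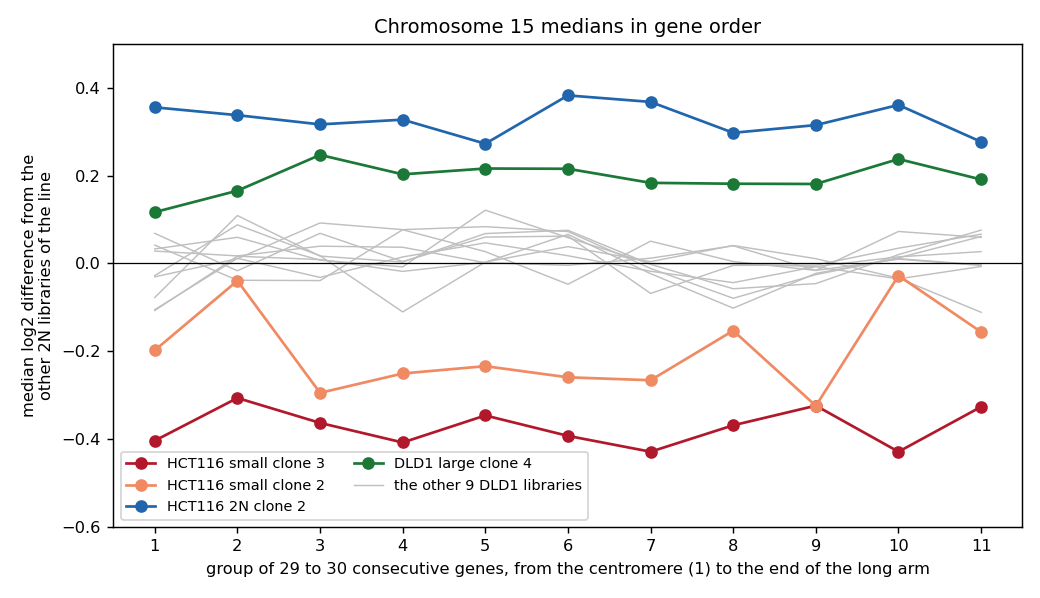
Median log2 difference in 11 groups of 29 or 30 consecutive chromosome 15 genes, in order from the centromere, for the 4 libraries and, in grey, the other 9 DLD1 libraries. The lines of the HCT116 small clone 3, the HCT116 2N clone 2 and the DLD1 large clone 4 stay on 1 side of 0 throughout, while that of small clone 2 comes near 0 in the second group and in the one before the last.

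Most single genes lay on the same side as the median of their chromosome. In the HCT116 small clone 3, 270 of the 329 genes were below all 3 of the line's 2N libraries, against 32.7% of all autosomal coding genes. In small clone 2, 176 genes were below all 3, against 35.5%. In 2N clone 2, 304 genes were above both other 2N libraries, against 30.6%, and in the DLD1 large clone 4, 216 genes were above all 3 of that line's 2N libraries, against 21.4%. These shares describe the libraries that the chromosome was taken up for and carry no test.

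The same held within each line as a whole. Small clone 3 was the lowest of the 9 HCT116 libraries at 147 genes, where 7.08% of autosomal coding genes had it lowest. Small clone 2 was the lowest at 60 genes, where 12.7% of autosomal coding genes had it lowest. The 2N clone 2 was the highest of the 9 at 174 genes (6.88% of autosomal coding genes) and the lowest at 0 of them. The DLD1 large clone 4 was the highest of the 10 DLD1 libraries at 131 genes (7.56% of autosomal coding genes). The genes scattered about their shifted median much as other genes did about 0: the interquartile range was -0.53 to -0.21 in small clone 3, against -0.12 to 0.17 for the other autosomes.

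Read totals told the same order. Chromosome 15 genes took 2.09% of the reads on autosomal coding genes in the HCT116 small clone 3, 2.46% in small clone 2 and 3.50% in 2N clone 2. In the other 6 HCT116 libraries they took 2.67% to 2.78%. The DLD1 large clone 4 had 3.38%, against 2.77% to 2.96% in the other 9 DLD1 libraries. That clone had 24.6 M reads and 2.42% of them on mitochondrial genes, against 23.5 to 36.0 M reads and 3.15% to 5.58% in the other DLD1 libraries; the part of either in its result was not tested.

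The medians of all 4 quartiles of expression level lay on the side of the shift in each of the 4 libraries. In the quartile with the lowest mean level (1.03 to 2.96 FPKM), the median was -0.26 in small clone 3, -0.15 in small clone 2, 0.24 in 2N clone 2 and 0.15 in the DLD1 large clone 4. In the quartile with the highest level (12.2 to 406 FPKM) it was -0.41, -0.23, 0.40 and 0.15 in the same order of libraries. The added 1 shrinks differences of low genes: with 0.1 added instead, the lowest quartile stood at -0.40 in small clone 3 and the highest at -0.43. Outside the 329 genes, the 42 chromosome 15 rows of other biotypes with a mean of at least 1 FPKM had medians of -0.33, -0.09, 0.26 and 0.12 in those libraries. With 2N clone 2 left out of the reference, small clone 2 stood at -0.02 in the lowest quartile, -0.11 in the highest and 0.00 in the other biotypes. On that reference small clone 3 stood at -0.17, -0.29 and -0.21. Against all other 2N libraries, the 109 coding rows with a mean of 0.1 to under 1 FPKM had -0.14, -0.05, 0.08 and 0.07. With 2N clone 2 left out, these rows stood at -0.10 in small clone 3 and -0.01 in small clone 2.

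All 11 lists of chromosome 15 genes had medians on the same side of 0 as the chromosome in each of the 4 libraries. Of the 329 genes, 185 were in these lists, which go by function or position. Below 0 were 92.7% of the 329 genes in small clone 3 and 78.4% in small clone 2. On the other autosomes these shares were 46.0% and 47.9%. Above 0 were 96.4% in 2N clone 2 and 88.1% in the DLD1 large clone 4, against 43.3% and 45.6% on the other autosomes. The counts per list are to be read beside these shares of the whole chromosome. With 2N clone 2 left out of the reference, 2 lists stood above 0 in the HCT116 small clone 2, namely mitosis and cytokinesis (0.01) and antigen presentation and immunity (0.03), while all 11 stayed below 0 in small clone 3. Of 13 listed genes for mitosis and cytokinesis, 12 were found as protein-coding rows of chromosome 15, and 11 were expressed above the threshold. All 11 were below 0 in small clone 3 (median -0.48) and all 11 above 0 in 2N clone 2 (median 0.28) and in the DLD1 large clone 4 (median 0.27). In small clone 3 they ran from -0.81 for CCNB2, a B-type cyclin, to -0.08 for TUBGCP4, a part of the gamma-tubulin complex. In small clone 2 only 7 of the 11 were below 0 (median -0.13). BUB1B, a kinase of the spindle checkpoint, stood at 21.7, 16.0 and 16.6 FPKM in the large HCT116 clones, 16.4, 15.1 and 13.1 FPKM in the small clones, 15.7 and 20.6 FPKM in the 2N clones and 16.8 FPKM in the parental library. Small clone 3 was the lowest of the 9, while 2N clone 2 was below large clone 1 only. The kinetochore scaffold KNL1 was at -0.42 in small clone 3, -0.02 in small clone 2, 0.40 in 2N clone 2 and 0.50 in the DLD1 large clone 4.

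All 13 expressed genes for DNA replication and repair, of 14 listed, were below 0 in small clone 3 (median -0.42) and in small clone 2 (median -0.34), and 12 were above 0 in 2N clone 2 (median 0.36) and in the DLD1 large clone 4 (median 0.18). The lowest in small clone 3 was the DNA glycosylase NEIL1 at -0.97, and the lowest in small clone 2 was the PCNA-associated factor PCLAF at -0.69. The helicase BLM was at -0.42, -0.20, 0.29 and 0.21 in the HCT116 small clone 3, small clone 2, 2N clone 2 and the DLD1 large clone 4. FANCI, of the Fanconi anaemia pathway, was at -0.42, -0.06, 0.42 and 0.17 in the same order, and TP53BP1, which steers the repair of double-strand breaks, at -0.26, -0.62, 0.36 and 0.25. The 3 genes were far apart in small clone 2 and close together in 2N clone 2.

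Of 22 listed genes for the ribosome and translation, 19 were expressed above the threshold, and 17 of them were below 0 in small clone 3 (median -0.35). All 19 were above 0 in 2N clone 2 (median 0.43), and 18 in the DLD1 large clone 4 (median 0.21). The stalk protein RPLP1 had the highest mean of the chromosome, at 406 FPKM. It stood at 455, 495 and 451 FPKM in the large HCT116 clones, 359, 386 and 299 FPKM in the small clones, 415 and 630 FPKM in the 2N clones and 441 FPKM in the parental library. Each of the small clones was below each of the other HCT116 libraries, and 2N clone 2 was above all. The ribosomal protein gene RPL4 was at -0.72 in small clone 3. Ribosomal protein genes have many near-identical processed copies in the genome, so their counts are uncertain.

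All 29 expressed genes for secretory, endosomal and lysosomal traffic, of 37 listed, were below 0 in small clone 3 (median -0.42) and above 0 in 2N clone 2 (median 0.27). The proprotein convertase FURIN was at -0.48 in small clone 3, 0.15 in small clone 2, 0.45 in 2N clone 2 and 0.57 in the DLD1 large clone 4. Of 23 expressed growth signalling genes, of 31 listed, 22 were below 0 in small clone 3 (median -0.39) and 22 above 0 in 2N clone 2 (median 0.39). The exception in small clone 3 was the insulin-like growth factor receptor IGF1R at 0.19. The kinase MAP2K1 (MEK1) was at -0.44 in small clone 3, 0.10 in small clone 2, 0.35 in 2N clone 2 and 0.16 in the DLD1 large clone 4. The TGF-beta signal carrier SMAD3 was at -0.50, -0.71, 0.67 and 0.25 in the same order. CSK, the kinase that restrains Src, was at -0.20, -0.24, 0.19 and 0.33.

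Of 32 expressed genes for transcription and chromatin, of 38 listed, 28 were below 0 in small clone 3 (median -0.39), among them the corepressor SIN3A at -0.38 and MGA, a MAX-binding repressor, at -0.22. Of 15 expressed genes for ubiquitin, SUMO and proteolysis, of 19 listed, 14 were below 0 in small clone 3 (median -0.35) and all 15 above 0 in 2N clone 2 (median 0.39). The deubiquitinase USP8 was at -0.58 and 0.40 in those clones, and the Angelman syndrome ubiquitin ligase UBE3A at -0.53 and 0.40. All 6 expressed genes of the Prader-Willi and Angelman region, of 16 listed, were below 0 in small clone 3 (median -0.42) and above 0 in 2N clone 2 (median 0.41). In the DLD1 large clone 4 these 6 had a median of 0.10, the lowest of the 11 lists there.

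Of 21 expressed genes for cytoskeleton, junctions and matrix, of 29 listed, 19 were below 0 in small clone 3 (median -0.29). The matrix protein THBS1 was an exception at 0.44, and the lysyl oxidase LOXL1 was the lowest at -1.43. The calcium-dependent membrane protein ANXA2 was at -0.49, the sheddase ADAM10 at -0.51, the tight junction protein TJP1 at -0.42 and the tropomyosin TPM1 at -0.18 in small clone 3. Of 19 expressed metabolic genes, of 29 listed, 16 were below 0 in small clone 3 (median -0.31).

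The pyruvate kinase PKM stood at 241, 266 and 232 FPKM in the large HCT116 clones, 271, 225 and 228 FPKM in the small clones, 264 and 354 FPKM in the 2N clones and 256 FPKM in the parental library. The 2N clone 2 was the highest, and small clones 2 and 3 were just below the large clone 3. The mitochondrial isocitrate dehydrogenase IDH2 was lower in small clone 3 (-0.46) but not in small clone 2 (0.33), and it was one of 3 metabolic genes below 0 in the DLD1 large clone 4 (-0.21).

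**Figure D4:**
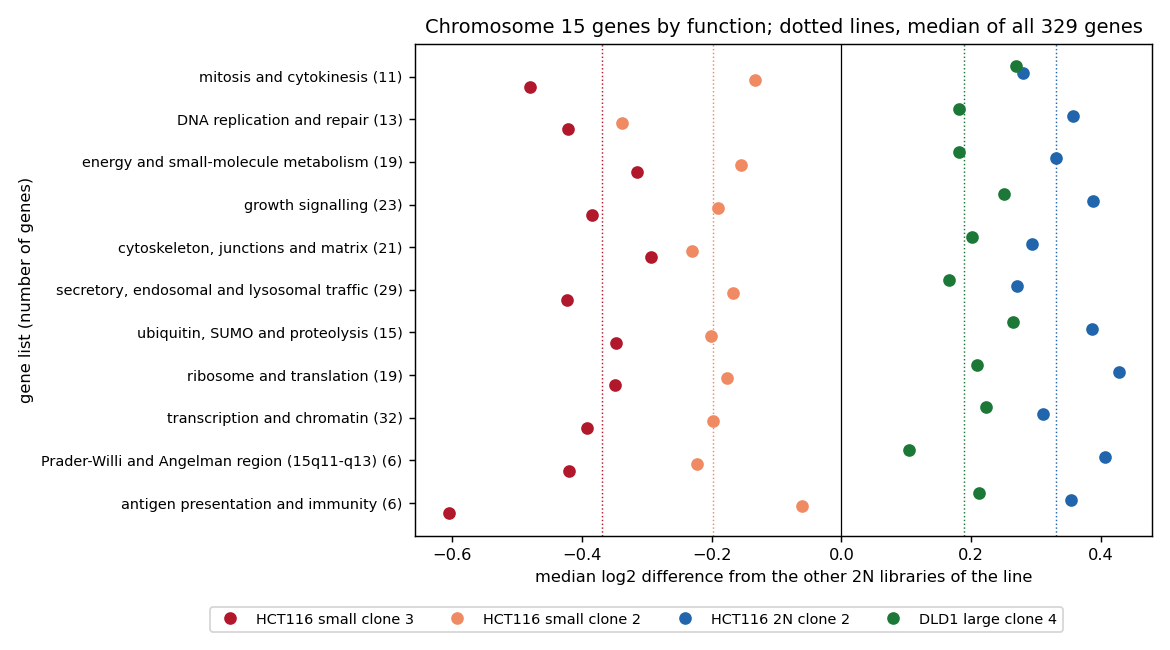
Median log2 difference of each gene list (number of expressed genes in brackets) in the 4 libraries, with dotted lines at the median of all 329 genes. Every list lies below 0 in the HCT116 small clones 3 and 2 and above 0 in the HCT116 2N clone 2 and the DLD1 large clone 4; with 2N clone 2 left out of the reference, mitosis and cytokinesis and antigen presentation and immunity stand above 0 in small clone 2.

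B2M, the invariant light chain of MHC class I, stood further below the 2N libraries in small clone 3 than most of its chromosome. It stood at 33.9, 38.3 and 32.1 FPKM in the large HCT116 clones, 36.0, 49.97 and 25.3 FPKM in the small clones, 43.7 and 62.5 FPKM in the 2N clones and 47.3 FPKM in the parental library. Small clone 3 was the lowest and 2N clone 2 the highest of the 9, and small clone 2 was above 2N clone 1 and the parental library. The difference was -0.97 in small clone 3, which is 0.60 below the chromosome 15 median of that library, and -0.02 in small clone 2. All 6 expressed genes for antigen presentation and immunity, of 10 listed, were below 0 in small clone 3 (median -0.61). The list holds PML, the organizer of PML nuclear bodies, at -0.29.

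Among the 175 genes with a mean of at least 5 FPKM in HCT116, the genes farthest above the chromosome 15 median in small clone 3 were ALDH1A3 (0.90), RPS27L (0.33), the RNA-binding protein RBPMS2 (0.33) and AEN (0.18). RPS27L, a ribosomal protein paralogue, and AEN, a nuclease, are both known targets of p53. RPS27L stood at 7.91, 8.81 and 7.67 FPKM in the large clones, 8.05, 6.08 and 6.44 FPKM in the small clones, 4.63 and 6.19 FPKM in the 2N clones and 4.08 FPKM in the parental library. AEN stood at 21.7, 17.1 and 23.2 FPKM in the large clones, 11.5, 10.7 and 11.2 FPKM in the small clones, 8.29 and 12.6 FPKM in the 2N clones and 8.84 FPKM in the parental library. All 3 large clones were above all 2N libraries for both genes, and 2N clone 2 lay within the small clones for RPS27L and above them for AEN. The farthest below, besides B2M, were the proteoglycan CSPG4 (-1.19), the alpha-mannosidase MAN2C1 (-0.997) and the membrane protein TMEM87A (-0.94).

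In small clone 2 the farthest above were CIB1 (1.13), the myosin MYO1E (1.09), SEMA4B (0.74) and the neuropeptide gene NMB (0.54). CIB1, a calcium- and integrin-binding protein, stood at 49.9, 50.1 and 28.7 FPKM in the large clones, 29.3, 78.7 and 28.4 FPKM in the small clones, 30.6 and 43.3 FPKM in the 2N clones and 33.8 FPKM in the parental library. SEMA4B, a membrane semaphorin, stood at 10.95, 10.96 and 6.05 FPKM in the large clones, 7.94, 22.2 and 6.42 FPKM in the small clones, 11.3 and 15.7 FPKM in the 2N clones and 12.1 FPKM in the parental library. Small clone 2 was the highest of the 9 libraries for both genes. They are neighbours, SEMA4B at chr15:90160604-90229679 and CIB1 at chr15:90229975-90234047, within the group of genes before the last one, where the median of small clone 2 was near 0. The farthest below in small clone 2 were CIB2 (-1.06), a relative of CIB1, the Ras pathway inhibitor SPRED1 (-0.92), the netrin receptor NEO1 (-0.81) and the transcription factor TCF12 (-0.79).

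In 2N clone 2 the farthest above were CHAC1 (1.46), PDIA3 (0.89), the milk fat globule protein MFGE8 (0.73) and the dUTPase DUT (0.72). CHAC1, which degrades glutathione and is known as a target of the integrated stress response, stood at 6.89, 34.2 and 2.03 FPKM in the large clones, 5.68, 20.5 and 17.7 FPKM in the small clones, 10.9 and 32.9 FPKM in the 2N clones and 11.9 FPKM in the parental library. It varied widely within each class, and large clone 2 was slightly above 2N clone 2. PDIA3, a disulfide isomerase of the endoplasmic reticulum, stood at 82.7, 78.5 and 90.1 FPKM in the large clones, 92.5, 83.2 and 71.1 FPKM in the small clones, 42.0 and 114.1 FPKM in the 2N clones and 88.4 FPKM in the parental library. The 2N clone 1 was far below the other 8 libraries, which raises the difference of 2N clone 2. The farthest below were ALDH1A3 (-0.56), MYO1E (-0.20), the elongation factor RTF1 (-0.15) and FRMD5 (0.03).

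In DLD1, among 177 genes with a mean of at least 5 FPKM in the line, the farthest above in large clone 4 were HERC2 (0.62), the transcription factor KLF13 (0.59), the lysosomal protease CTSH (0.58) and the zinc finger gene ZNF609 (0.58). HERC2, a giant ubiquitin ligase, stood at 7.48, 7.12, 7.20 and 9.55 FPKM in the large clones, 6.33, 6.35 and 6.81 FPKM in the small clones, 6.13 and 5.28 FPKM in the 2N clones and 6.29 FPKM in the parental library. All 4 large clones were above the other 6 libraries, and large clone 4 was the highest; partial copies of HERC2 on the same chromosome make its counts uncertain. The farthest below were MFAP1 (-0.47), the mRNA cap methylation factor RAMAC (-0.32), the sulfotransferase CHST14 (-0.24) and the acyltransferase LPCAT4 (-0.23). MFAP1, a splicing protein, stood at 23.2, 26.7, 25.1 and 16.7 FPKM in the large clones, 25.3, 23.9 and 24.7 FPKM in the small clones, 27.2 and 21.4 FPKM in the 2N clones and 22.4 FPKM in the parental library. Large clone 4 was below the other 9 libraries.

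Contrasts of the clone classes were fitted with limma over 14835 genes, with Benjamini-Hochberg adjustment over all of them and a threshold of 0.05. All 329 chromosome 15 genes were among the genes tested. Since each replicate is a separate clone, a p-value here is read against the variation among clones within classes. For each gene that variation was pooled over the classes of all lines, including lines where the gene was hardly expressed. The HCT116 contrasts and those with the DLD1 large clones hold libraries for which the chromosome was taken up. Their counts are set beside the background only. For the same reason, the p-values of single chromosome 15 genes in these contrasts are given as a description. The large and small clones were set against the same 2N clones.

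In the HCT116 small clones against the 2N clones, 0 of the 329 genes passed, against 0.027% of all genes tested. At an unadjusted p under 0.05 there were 64, all lower in the small clones, against 4.55% of all genes, and limma voom on the recovered reads called 0. The median log2 difference of the 329 genes was -0.27, against 0.00 over all genes tested, and 307 of 329 were negative. The spread behind this is wide, since the chromosome 15 medians were -0.10, -0.20 and -0.37 in the small clones and -0.15 and 0.33 in the 2N clones.

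In the HCT116 large clones against the 2N clones, 2 of the 329 genes passed, against 0.917% of all genes tested. At an unadjusted p under 0.05 there were 54 (45 lower and 9 higher), which is 16.4% of the 329, against 16% of all genes tested. With large clone 2 left out, 12 passed (of 1183 genes in all), and with each of the other large or 2N clones left out 0 or 1. ALDH1A3, which makes retinoic acid and marks stem-like cells in several tumours, stood at 58.8, 63.6 and 95.8 FPKM in the large clones, 21.7, 13.1 and 42.7 FPKM in the small clones, 23.1 and 17.0 FPKM in the 2N clones and 28.4 FPKM in the parental library. All 3 large clones were above the other 6 libraries. The log2 difference between large and 2N clones was 1.79 ± 0.32 (SE, limma adjusted p = 0.0156). It missed the threshold without large clone 3 (limma adjusted p = 0.0508), without 2N clone 1 (limma adjusted p = 0.0925), without 2N clone 2 (limma adjusted p = 0.193), with 0.1 added in place of 1 (limma adjusted p = 0.0700) and with HCT116 fitted alone (limma adjusted p = 0.311). The difference stayed between 1.58 and 2.00 when clones were left out one at a time.

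CSPG4 stood at 4.36, 6.69 and 5.10 FPKM in the large clones, 7.85, 8.97 and 4.47 FPKM in the small clones, 10.2 and 15.2 FPKM in the 2N clones and 9.82 FPKM in the parental library. All 3 large clones were below the 2N libraries and overlapped the small clones. The log2 difference between large and 2N clones was -1.09 ± 0.21 (SE, limma adjusted p = 0.0191). Without 2N clone 2, which had the highest value, it was -0.82 (limma adjusted p = 0.282), and limma voom gave an adjusted p of 0.0762. The limma adjusted p was 0.103 with 0.1 added in place of 1 and 0.321 with HCT116 fitted alone. Without large clone 1 it was -0.97 (limma adjusted p = 0.0932) and without large clone 3 it was -1.07 (limma adjusted p = 0.0516).

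In the HCT116 large clones against the small clones, 1 of the 329 genes passed, against 0.445% of all genes tested. At an unadjusted p under 0.05 there were 54, of which 53 were higher in the large clones; this is 16.4% of the 329, against 15.4% of all genes tested. The gene past the adjusted threshold was ALDH1A3, at 1.58 ± 0.29 (SE, limma adjusted p = 0.0197), and limma voom called 1 gene. The call was lost without large clone 3 (limma adjusted p = 0.0712), without small clone 1 (limma adjusted p = 0.0996), with 0.1 added in place of 1 (limma adjusted p = 0.0839) and with HCT116 fitted alone (limma adjusted p = 0.358). Over the 329 genes the median difference was 0.12, against 0.00 over all genes tested, and 247 were positive. Without large clone 2 the number of chromosome 15 genes past the threshold was 29, all higher in the large clones, where 1035 of all genes tested passed; it was 0 without small clone 1 and 2 without small clone 2.

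**Figure D5:**
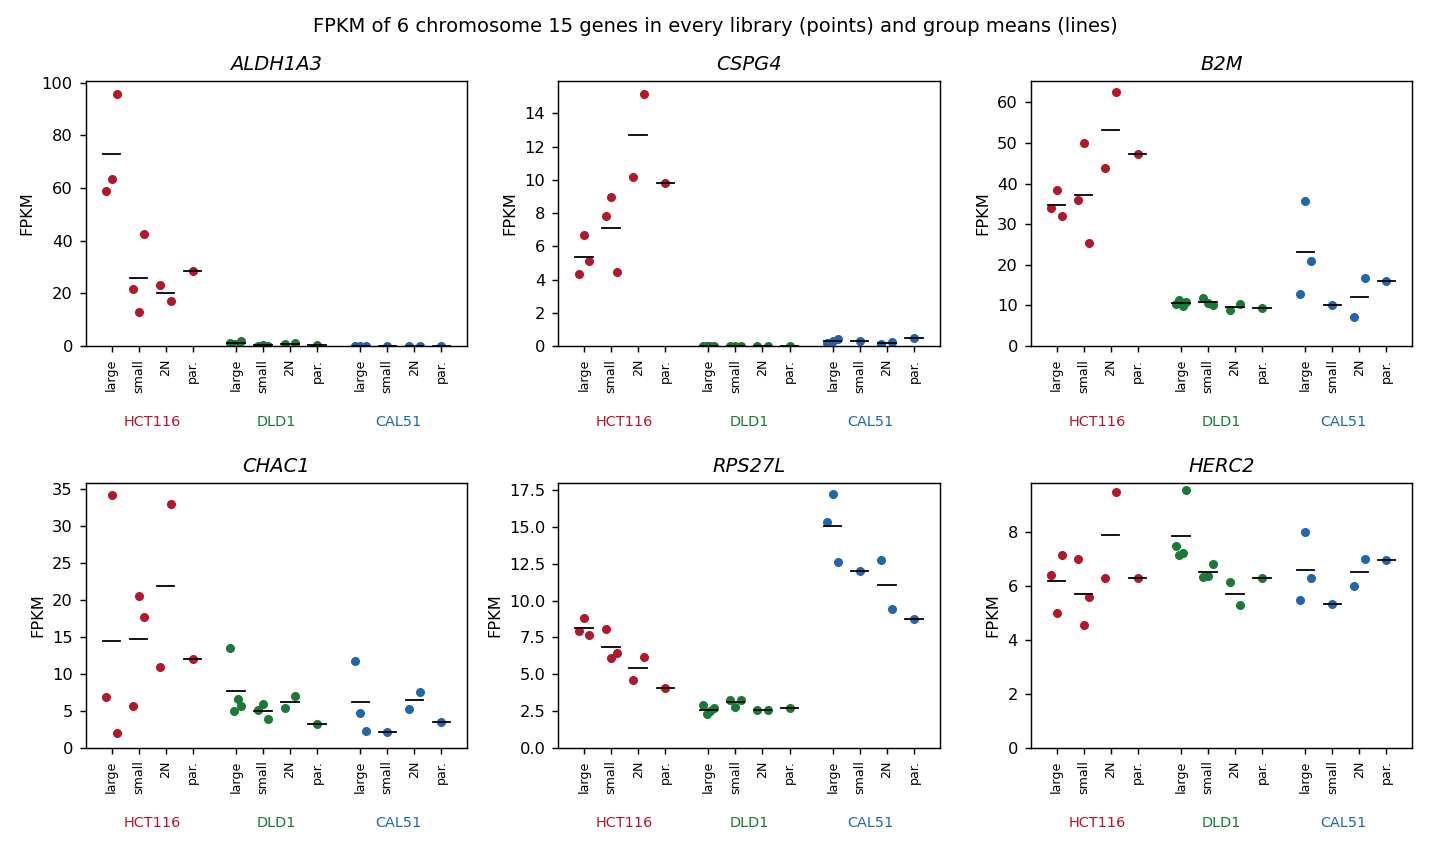
FPKM of 6 chromosome 15 genes in every library (points) with group means (lines), by line and class (par., parental). ALDH1A3 lies at 58.8 to 95.8 FPKM in the large HCT116 clones and at most 42.7 FPKM in the other HCT116 libraries, B2M is lowest among HCT116 libraries in a small clone at 25.3 FPKM, and HERC2 is highest among DLD1 libraries in a large clone at 9.55 FPKM.

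ALDH1A3 and CSPG4 were expressed mainly in HCT116. ALDH1A3 averaged 1.03 ± 0.50 FPKM in the DLD1 large clones (SD, n = 4), 0.227 ± 0.088 FPKM in the DLD1 small clones (SD, n = 3) and 0.961 ± 0.156 FPKM in the DLD1 2N clones (SD, n = 2). It did not exceed 0.0190 FPKM in any CAL51 large clone. CSPG4 did not exceed 0.0183 FPKM in any DLD1 large clone and 0.420 FPKM in any CAL51 large clone. The pooled variation behind the p-values of both genes includes these low groups. With HCT116 fitted alone, neither gene passed for large against 2N clones (limma adjusted p = 0.311 for ALDH1A3 and 0.321 for CSPG4). The part of the low groups in the calls was not tested.

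In DLD1, 0 of the 329 genes passed in the small clones against the 2N clones, where 0.337% of all genes tested passed, and 10 were at an unadjusted p under 0.05 (7.24% of all genes). In the large clones against the 2N clones 0 passed (0% of all genes tested), with 5 at an unadjusted p under 0.05 (2.99% of all genes). In the large clones against the small clones 0 passed, where 0.472% of all genes tested passed, with 14 at an unadjusted p under 0.05 (6.65% of all genes). Limma voom called 0, 0 and 1 in these 3 contrasts, where it called 23, 0 and 51 of all genes. The 1 gene was SCAMP5, a secretory carrier membrane protein, at 1.89 (limma voom adjusted p = 0.0182). The fit without small clone 3 called TSPAN3, a tetraspanin, in the last contrast, where it called 31 of all genes. With 0.1 added in place of 1, SCAMP5 and ALDH1A3 passed there, ALDH1A3 at 1.73 (limma adjusted p = 0.0293), at levels of at most 1.75 FPKM in any DLD1 library. SCAMP5 and TSPAN3 were named after their values were seen. The median of the 329 genes between large and small clones was 0.06, against 0.00 over all genes tested. That median includes large clone 4, whose own median was 0.19.

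In CAL51, 0 of the 329 genes passed in the large clones against the 2N clones, where 0.465% of all genes tested passed, and limma voom called 0. At an unadjusted p under 0.05 there were 18 (8.16% of all genes). Leaving out 1 clone at a time gave 0 to 4 genes, with 2, 1 and 4 without the large clones 1, 2 and 3 and 1 without 2N clone 2. The same fits called 167, 143, 219 and 245 of the 14835 genes. The 4 without large clone 3, named after their values were seen, were the matrix genes THBS1 and FBN1, the receptor GPR176 and the kinase LRRK1. The CAL51 large clone 1 had a chromosome 15 median of -0.02, but its group medians along the chromosome ran from -0.39, in the group nearest the centromere, to 0.19 in the eighth. In that library the other autosomes also varied, with medians of -0.21 to 0.30, and the interquartile range of chromosome 15 genes was -0.38 to 0.28.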

How the data were processed

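Poly-A RNA was sequenced from 26 clones or parental cultures as directional dUTP libraries, per the labels' protocols. The authors deposited gene-level FPKM values. Per the submitters' processing notes, the tools were fastp, HISAT2 version 2.0.5, featureCounts version 1.5.0-p3 and DESeq2, and the build was GRCh38; the strand setting of the counting and its handling of overlapping genes are not given in the sources used here. Multiplied by gene length, the deposited FPKM values of each library were whole reads to within 0.01 for 100% of values, which gave the depth, 23.5 to 44.5 M reads; these reads served the read shares and 2 alternatives.

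Differences were taken on log2(FPKM + 1), which understates the change of low genes. A library's shift is the median over the 329 genes. Contrasts came from limma (3.58.1, under R 4.3.3), fitted to 12 means (line by class), an intensity trend and moderated variances, over 14835 genes with at least 1 FPKM in at least 3 libraries; tests were two-sided. The residual degrees of freedom were 14 and the prior ones 3.84. The code was also run on simulated reads drawn around line means, with the same dispersion for every gene and library. The spread among the real clones was not modelled there, so that run is no check of the calls above. Medians, bins and figures were made in Python (3.11.15; numpy 2.4.6, pandas 2.3.3, matplotlib 3.10.9).

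The genes and lists were chosen with earlier results of these data known. Named genes were a set list of chromosome 15 genes, the 4 farthest above and below the median in each of the 4 libraries among genes with a line mean of at least 5 FPKM, and genes past the limma threshold; the lowest or highest gene of a list was named after its value was seen. The single CAL51 small clone entered no contrast. Alternatives were pseudocount, filter, reference, centring, RPM, limma voom, each line alone, a replicate block and leaving out each clone.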

Additional observations from a re-analysis of the deposited data

Results flagged for a closer look

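Among the 4 DLD1 large clones, 1 clone lay far from the other 3 in 6 of 56 quantities examined; chance alone gives about 1 in 20 groups. The tally is no test, since the chromosome 15 median of large clone 4 was among the values that chose the chromosome and its read share and gene levels follow from the same library. For large clone 4 these were the chromosome 15 median (0.19), the share of autosomal coding reads on chromosome 15 genes (3.38%), the CSK level (30.4 FPKM, against 26.3 to 26.8 FPKM in the other 3) and the HERC2 level (9.55 FPKM). For large clone 2 it was the TJP1 level, at 16.7 FPKM, below 24.2, 24.6 and 24.8 FPKM in large clones 1, 3 and 4. The sixth was RBPMS2, with large clone 4 at 0.0181 FPKM and the other 3 large clones listed at 0 FPKM. Beside 3 values at 0 any other value stands apart, and 0.0181 FPKM is below what 1 read per kb of gene gives (0.0246 to 0.0400 FPKM).

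The chromosome 15 medians of all 3 HCT116 large clones were below 0 and those of all 4 DLD1 large clones above 0, with a difference of -0.15 between their means. This difference was not tested. With 2N clone 2 left out of the HCT116 reference, the HCT116 large clones stood at 0.06, -0.01 and -0.04, so the signs no longer separate the lines.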

How the results depend on the processing

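The direction of the chromosome 15 median was the same in all 4 libraries under every alternative run. Without a filter on FPKM the medians were -0.21 in the HCT116 small clone 3 and 0.10 in the DLD1 large clone 4, since genes near 0 then enter. On RPM (reads scaled to library depth) from the recovered reads, the DLD1 large clone 4 stood at 0.29, with the other autosomes at 0.05. Leaving out 1 reference library at a time gave -0.43 to -0.27 in small clone 3, -0.25 to -0.09 in small clone 2, 0.33 in 2N clone 2 and 0.17 to 0.19 in the DLD1 large clone 4. Against all other libraries of the line, small clone 2 stood at -0.09. In groups of 20 genes, the highest median along the chromosome in small clone 2 turned to 0.0154; the cause was not tested.

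Counts of chromosome 15 genes past the limma threshold were small and depended on the fit. For HCT116 large against 2N clones the count of 2 became 1 with a pseudocount of 0.1 (GCHFR, neither of the 2), 1 with voom (ALDH1A3) and 0 with the line fitted alone, and 0 to 12 without 1 clone. For HCT116 large against small clones the count of 1 became 0 with a pseudocount of 0.1 and 0 with the line fitted alone, and 0 to 29 without 1 clone. For DLD1 large against small clones the count of 0 became 2 with a pseudocount of 0.1 and 1 with voom, and 0 to 1 without 1 clone. For CAL51 large against 2N clones it was 0 to 4 without 1 clone. Where 1 clone is left in a class, it is assumed to vary like the other groups.

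The CSPG4 call also ended with the replicate number as a block (limma adjusted p = 0.0792). This fit called 1 gene for HCT116 large against 2N clones and 7 for CAL51 large against 2N clones, where it called 25 and 233 of all 14835 genes, and left the other counts at 0, 1, 0, 0 and 0 (HCT116 small against 2N and large against small, DLD1 small against 2N, large against 2N and large against small). Same-numbered clones had correlations of their deviations of -0.06 to 0.21 and share only a number, so no pairing was taken from it. Each shift in a single library has no replicate check.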
